A study of Mus musculus with 7 samples.

Results

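The solute carriers are membrane proteins that move sugars, amino acids, ions, metals, vitamins and metabolites across the membranes of cells and organelles. The genes described here are those of the mouse array with a symbol built as Slc, a family number, the letter a and a member number. A gene entered when a probe set carried its symbol alone, and where it had several, the one with the highest mean signal stood for it. Inorganic phosphate importers of the Slc20 family and the red cell anion exchanger of the Slc4 family (3 measured genes) were left out. This gave 235 genes of the 12393 genes measured. The rule uses names and mean signal over all arrays, and no difference between the groups. Each was placed in 1 of 13 substrate families by its family number alone. A substrate family is thus named for a main substrate, and single members can carry another. Slc6a2, the norepinephrine transporter, for example, was counted among the amino acid and peptide transporters.

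The study compared osteolineage cells of bone marrow stroma sorted by fluorescence from double transgenic mice (OsxCre-mCherry;OcnCre-Topaz) on Affymetrix arrays. The sample names tie the mCherry colour to osterix and the Topaz colour to osteocalcin. The Osx+ group (red, 4 arrays) and the Ocn+ group (green, 3 arrays) therefore had the same genotype, the same age of 4 to 6 weeks and the same tamoxifen induction, 6 days before sorting. Double-labelled cells were not analysed here. Osterix (Sp7) drives progenitors into the osteoblast lineage, and osteocalcin is deposited in bone matrix by mature osteoblasts. A group is defined by its colour, so it can hold any cell that fell in the gate. Whether a colour marks present or past activity of a promoter is not known here. The labels do not say which arrays came from separate animals, so the p-values reflect no more than the spread among these samples, part of which may be technical.

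Solute carriers set what a bone-forming cell can take up and what it releases. Osteoblasts import glucose and amino acids to make collagen and release lactate, cartilage cells import sulfate for proteoglycans, and osteoclasts exchange bicarbonate for chloride while they secrete acid. Macrophages carry metal and peptide transporters in the membranes of their phagosomes and lysosomes, and every nucleated cell here needs carriers in the inner mitochondrial membrane.

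The sorted cells carried the defining genes of the osteoblast lineage on every array. Sp7, which encodes osterix, had log2 signals of 12.15 to 12.93 over the 7 arrays, Col1a1 of 14.92 to 15.05 and Alpl of 13.63 to 13.88. Of 10 measured osteoblast markers, 8 had a higher mean in Ocn+, with a median difference of 0.42. Dmp1, Phex, Mepe, Sost and Fgf23 differed by 0.66 to 2.61, and Sp7, Col1a1, Col1a2, Alpl and Ibsp by -0.13 to 0.18. Genes of other cell types also gave signal. The summed linear signal of the endothelial list (12 of 12 markers with a higher mean in Ocn+) lay at 13.69 to 14.10 on the log2 scale in Ocn+ and at 10.6 to 13.23 in Osx+. That of the neutrophil list (10 of 10 higher in Ocn+) lay at 15.51 to 15.74 and at 13.19 to 15.41. The 11 cartilage markers all had lower means in Ocn+, with a median difference of -1.17. No marker of these lists is listed at 0, since log2 array values have no zero, and the part of these cells in the results was not tested.

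The 7 arrays also fell into classes that cut across the groups. Xist, the RNA made from the inactive X chromosome, had a log2 signal of 4.87 to 5.79 on 3 arrays (Ocn+ replicate 1, Osx+ replicates 1 and 3) and of 12.33 to 12.96 on the other 4. The first principal component held 49.9% of the variance over all genes and separated the same classes, with scores of -52.8 to -28 on the low Xist arrays and of 12.9 to 49.4 on the high Xist arrays. Each class held arrays of both groups, so differences within the classes are given beside the pooled ones. The labels give no batch.

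No transporter passed the adjusted threshold. Of 235 members 0 had an adjusted p under 0.05 (limma, 2-sided, Benjamini-Hochberg adjustment over all 12393 genes), as against 0.0% of all genes, and the smallest adjusted p of a member was 0.689. At an unadjusted p under 0.05 there were 16 members (6.81%), 12 with higher and 4 with lower means in Ocn+, beside 5.31% of all genes (3.48% higher, 1.83% lower). The arrays of both groups lay apart without overlap for 17 members (7.23%), 14 with all Ocn+ arrays above all Osx+ arrays and 3 below, beside 6.9% of all genes (4.37% above, 2.53% below). These shares were near those of all genes. With 1 array left out in turn, between 24 and 41 members lay apart, a count that fewer arrays raise by construction. The median difference of the members, Ocn+ minus Osx+, was -0.03 log2 units beside 0.02 for all genes, with 115 members above 0 and 120 below. Differences of at least 1 log2 unit in size were found in 10 members (4.26%), 6 higher and 4 lower in Ocn+, beside 3.52% of all genes (2.26% higher, 1.26% lower). Every difference below is Ocn+ minus Osx+ in mean log2 signal with its standard error from limma.

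**Figure D1:**
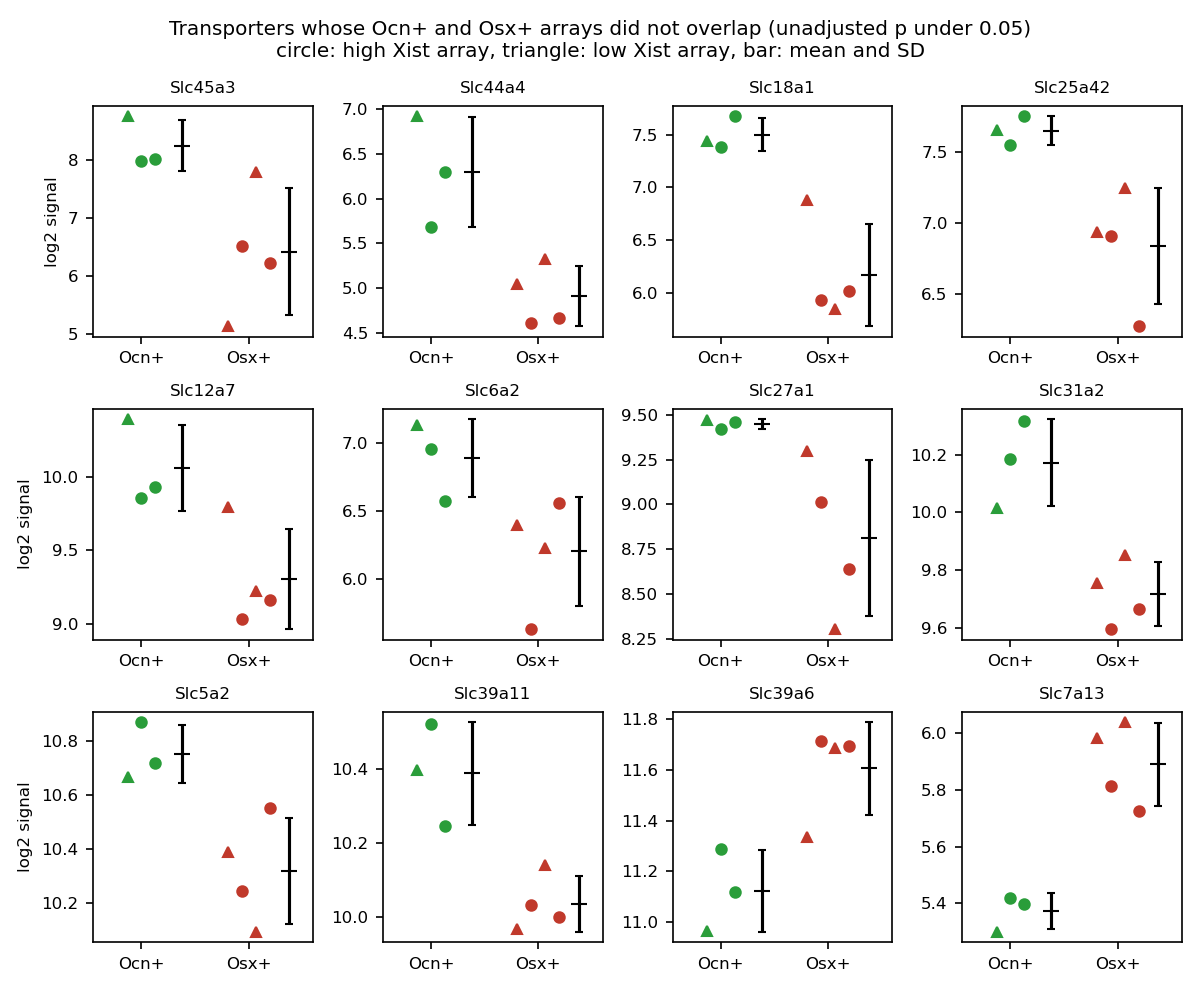
Log2 signal on each array (y axis) by group (x axis) for the 12 transporters whose 3 Ocn+ and 4 Osx+ arrays did not overlap and whose unadjusted p was under 0.05; circles are high Xist arrays, triangles low Xist arrays, and bars give mean and SD. Of these, 10 stood higher in Ocn+ and 2, Slc39a6 and Slc7a13, stood lower, and none passed the adjusted threshold.

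The substrate families differed little in their medians. The highest median among families of at least 8 genes was that of the mitochondrial carriers, at 0.15 over 33 genes, followed by the metal ion and heme transporters at 0.14 over 27 genes. The lowest were the carboxylate transporters, at -0.22 over 10 genes, and the amino acid and peptide transporters, at -0.11 over 46 genes. With 1 array left out in turn, none of these medians changed sign. They ran from 0.041 to 0.174 for the mitochondrial carriers and from 0.053 to 0.161 for the metal ion and heme transporters. The carboxylate median ran from -0.292 to -0.184 and that of the amino acid and peptide transporters from -0.157 to -0.05. Leaving out Osx+ replicate 2 gave 0.041 for the mitochondrial carriers and 0.053 for the metal ion and heme transporters, and leaving out Osx+ replicate 4 gave 0.071 and 0.07. Leaving out Ocn+ replicate 1 gave 0.05 and 0.091. The amino acid and peptide median was -0.064 when Ocn+ replicate 3 was dropped and -0.05 when Osx+ replicate 1 was. Single genes spread more widely, from -1.33 to 0.84 among the amino acid and peptide transporters.

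**Figure D2:**
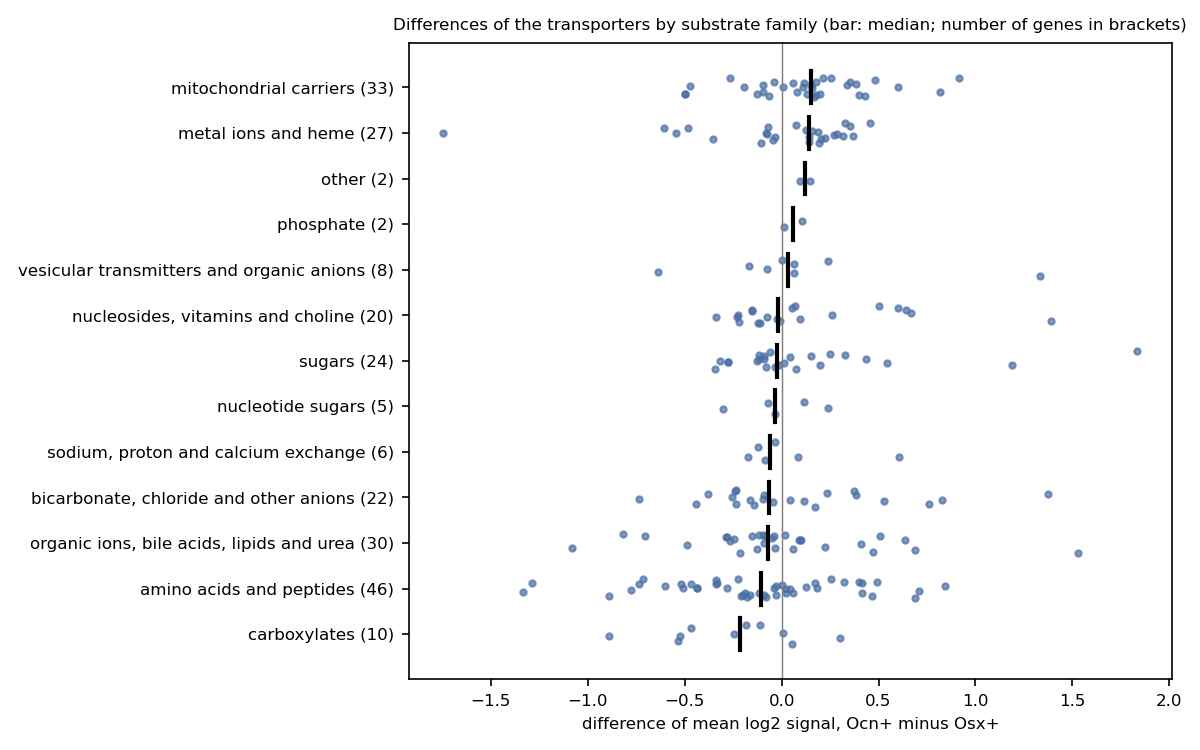
Difference of mean log2 signal, Ocn+ minus Osx+ (x axis), for each of the 235 transporters as a point, by substrate family (y axis, with the number of genes), with a bar at the family's median. All family medians lie between -0.22 and 0.15, while single genes reach from -1.75 to 1.84.

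The start regions of 3 of the most different members are shown, picked after their values were seen, because they stand at both ends of the comparison and have a window in the RefSeq table (GRCm38.p6), which holds 182 of the 235 members. Each window runs from 250 bases before to 50 bases after the annotated start of transcription and is written on the gene's strand. Slc11a1 lies at chr1:74374953-74375252 (plus strand), Slc37a2 at chr9:37255689-37255988 (minus strand) and Slc44a4 at chr17:34914216-34914515 (plus strand). Capitals mark matches, on either strand, to GAGGAA (a core bound by the ETS factor PU.1 of myeloid cells), TGTGGT (the Runt motif bound by RUNX proteins), GGGCGG (the GC box), CACGTG (an E-box) and TATAAA (the TATA box).
Slc11a1: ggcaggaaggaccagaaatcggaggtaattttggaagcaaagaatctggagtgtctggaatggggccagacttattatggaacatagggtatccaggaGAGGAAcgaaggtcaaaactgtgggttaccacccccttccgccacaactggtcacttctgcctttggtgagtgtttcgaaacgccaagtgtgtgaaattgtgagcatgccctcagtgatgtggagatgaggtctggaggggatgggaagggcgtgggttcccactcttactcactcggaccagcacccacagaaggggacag
Slc37a2: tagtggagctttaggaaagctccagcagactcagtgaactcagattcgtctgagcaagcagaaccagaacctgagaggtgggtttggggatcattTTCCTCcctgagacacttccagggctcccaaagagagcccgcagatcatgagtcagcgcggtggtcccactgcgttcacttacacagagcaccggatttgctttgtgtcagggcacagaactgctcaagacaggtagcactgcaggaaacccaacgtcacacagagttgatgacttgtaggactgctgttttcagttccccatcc
Slc44a4: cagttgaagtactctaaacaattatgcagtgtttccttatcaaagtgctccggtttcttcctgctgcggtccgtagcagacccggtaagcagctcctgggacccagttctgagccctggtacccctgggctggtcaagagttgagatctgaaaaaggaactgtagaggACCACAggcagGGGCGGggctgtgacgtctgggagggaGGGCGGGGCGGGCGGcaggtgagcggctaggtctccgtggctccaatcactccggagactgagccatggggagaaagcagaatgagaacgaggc
The windows of Slc11a1 and Slc37a2 hold 1 match to the ETS core each, starting 152 and 155 bases before the start of transcription, on the same strand in Slc11a1 and on the opposite strand in Slc37a2. The window of Slc44a4 holds 1 Runt match on the opposite strand, starting 82 bases before the start, and 4 GC boxes, the last 3 of which overlap. The ETS core was found in 24.2% of the 182 member windows, in 28.3% of all 27025 windows and in 27.3% of the 9887 windows of genes tested here. The Runt motif was found in 15.4%, 16.9% and 13.1%, and the GC box in 62.6%, 35.9% and 57.5%. The E-box was found in 11%, 7.24% and 9.33%, and the TATA box in 9.89%, 14.2% and 10.1%. A match describes the letters of the window and is no measurement of binding.

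Among the 24 genes placed in the sugar family by number, 11 had higher means in Ocn+ (45.8%, beside 52.7% of all genes) and 13 lower. The median difference was -0.02. Slc45a3 (prostein, a putative sugar transporter best known from prostate) had the highest difference of all members. Its Ocn+ arrays read 8.76, 7.98 and 8.02 and its Osx+ arrays 5.13, 6.51, 7.80 and 6.22, so that the groups did not overlap but Osx+ replicate 3 came close to the Ocn+ arrays. The difference was 1.84 ± 0.58 (SE; limma adjusted p = 0.871), a 3.57-fold higher geometric mean in Ocn+, and it was 1.63 in the high and 2.29 in the low Xist arrays. A second probe set of the gene differed by 1.84 and did not overlap either, though both are of probe set types (s and x) whose probes can match other transcripts. Slc37a2, a sugar phosphate antiporter of the endoplasmic reticulum known from macrophages and osteoclasts, was picked after its values were seen. It read 11.91, 11.48 and 11.80 in Ocn+ and 11.30, 10.62, 11.16 and 9.08 in Osx+. All Ocn+ arrays lay above all Osx+ arrays, and Osx+ replicate 4 lay far below the rest. The difference was 1.19 ± 0.53 (limma adjusted p = 0.960), and it was 0.71 without Osx+ replicate 4. Slc5a2, the sodium-glucose cotransporter of the kidney tubule, read 10.66 to 10.87 in Ocn+ and 10.09 to 10.55 in Osx+. It differed by 0.43 ± 0.17 (limma adjusted p = 0.935), and its other probe set differed by 0.22 with overlap. The probe set used for Slc5a2 is also of the s type, whose probes can match other transcripts.

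The general glucose transporters showed no such gap. Slc2a1, the glucose transporter of most proliferating cells and of osteoblasts, read 12.72, 12.79 and 12.13 in Ocn+ and 12.76, 13.19, 12.84 and 12.53 in Osx+. The groups overlapped, and the difference was -0.28 ± 0.24. Its 2 other probe sets differed by -0.24 and -0.38. Slc2a3, a high-affinity glucose transporter, differed by 0.15 ± 0.26, with a sign that turned in the high Xist arrays (-0.14). Slc2a4, which insulin moves to the surface of fat and muscle cells, differed by 0.54 ± 0.29, and its other probe set by -0.05.

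Osteoclast markers, like Slc37a2, had higher means in Ocn+. Of 9 measured osteoclast markers 9 had higher means in Ocn+, with a median difference of 0.86, and their summed linear signal lay at 15.69 to 15.80 (log2) in Ocn+ and at 13.77 to 15.39 in Osx+. The lowest sum of that list was on Osx+ replicate 4, the array with the lowest Slc37a2 signal. Within Osx+ the highest sum was on replicate 3, while Slc37a2 was highest on replicate 1. Of 12 measured macrophage markers 10 had lower means in Ocn+, with a median difference of -1.38. The part of either cell type in the result was not tested, and in these bulk samples fewer cells of a type and less RNA per cell cannot be told apart.

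The amino acid and peptide transporters had 18 members with higher means in Ocn+ (39.1%, beside 52.7% of all genes) and 28 with lower. Between the groups 2 of 46 did not overlap (4.35%, beside 6.9% of all genes). Slc6a2, the norepinephrine transporter of sympathetic neurons, read 7.14, 6.96 and 6.58 in Ocn+ and 6.39, 5.63, 6.23 and 6.56 in Osx+. The groups were separate by a narrow margin, and the difference was 0.69 ± 0.27 (limma adjusted p = 0.935). Slc7a13, an aspartate and glutamate transporter of the kidney, read 5.30, 5.42 and 5.40 in Ocn+ and 5.98, 5.81, 6.04 and 5.72 in Osx+. Its arrays were tightly grouped and did not overlap, and the difference was -0.52 ± 0.15 (limma adjusted p = 0.765). The signal was dim, with a mean at the percentile 21.9 of all genes, and no detection calls were used here. The other probe set of Slc7a13 differed by -0.16 with overlap.

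Carriers that feed collagen synthesis overlapped between the groups. Slc1a5, the glutamine importer, differed by 0.06 ± 0.35. Slc7a5, the large neutral amino acid transporter, differed by -0.34 ± 0.25, and Slc3a2, the heavy chain it pairs with, by -0.09 ± 0.24. Slc38a2, an importer of alanine, proline and glutamine, differed by -0.23 ± 0.22 with arrays from 10.85 to 11.57. Slc6a9, a glycine transporter, read 11.74 to 12.01 in Ocn+ and 11.65 to 12.06 in Osx+. These are among the carriers of the family with bright signals, and none had groups apart. Slc1a3, a glutamate transporter of astrocytes and bone cells, read 9.37, 9.66 and 9.95 in Ocn+ and 8.11, 9.40, 8.73 and 9.55 in Osx+. Its groups overlapped through Osx+ replicates 2 and 4, with a difference of 0.71 ± 0.37. Another of its probe sets, dimmer, did not overlap and differed by 1.36. Slc7a11, the cystine importer, differed by -0.44 ± 0.47 on a dim probe set.

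3 further members of the family were picked after their values were seen. Slc15a3, a peptide and histidine transporter of lysosomes in phagocytes, read 9.21, 8.0 and 8.23 in Ocn+ and 11.24, 10.14, 9.32 and 8.55 in Osx+. Only Osx+ replicate 4 lay within the range of the Ocn+ arrays, and the difference was -1.33 ± 0.64 (limma adjusted p = 0.999). Slc6a15, a neutral amino acid transporter known from brain, read 5.08 to 5.33 in Ocn+ and 5.13, 8.56, 5.33 and 6.85 in Osx+. Osx+ replicates 2 and 4 stood above the other arrays, so that the difference was -2.60 in the high and 0.10 in the low Xist arrays. Slc6a6, the taurine transporter, read 11.13 on the low Xist array of Ocn+ and 12.18 and 12.74 on the others. In Osx+ it read 10.26 and 9.89 on the low and 12.62 and 11.91 on the high Xist arrays. Its level thus followed the Xist class more than the group, whose difference was 0.84 ± 0.74.

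The metal ion and heme transporters had 4 of 27 members without overlap (14.8%, beside 6.9% of all genes), 2 above and 2 below. Means in Ocn+ were higher for 16 (59.3%, beside 52.7% of all genes) and lower for 11. Slc11a1, the divalent metal pump of the macrophage phagosome, had the lowest difference of all members. It read 9.36, 8.11 and 8.48 in Ocn+ and 11.78, 10.71, 9.84 and 9.25 in Osx+. Ocn+ replicate 1 overlapped with Osx+ replicate 4 and the other Osx+ arrays lay above every Ocn+ array. The difference was -1.75 ± 0.62 (limma adjusted p = 0.888), a 3.35-fold lower geometric mean in Ocn+, and it was -1.68 in the high and -1.45 in the low Xist arrays.

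Macrophage markers were lower in Ocn+ along with Slc11a1 and Slc15a3. Of 12 measured markers 10 had lower means in Ocn+, with a median difference of -1.38. Mpeg1, which forms pores in engulfed bacteria, differed by -2.11, and C1qa, a complement subunit made by tissue macrophages, by -1.60. Csf1r, the receptor for macrophage colony-stimulating factor, differed by 0.28, with a signal of at least 11.96 on every array. The summed linear signal of the list lay at 14.41 to 15.21 (log2) in Ocn+ and at 14.65 to 15.92 in Osx+, so the groups overlapped. Osx+ replicate 1 had the highest sum and the highest signal of both transporters, and Osx+ replicate 4 the lowest sum and the lowest signals of its group. The part of macrophage RNA in these differences was not tested.

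**Figure D3:**
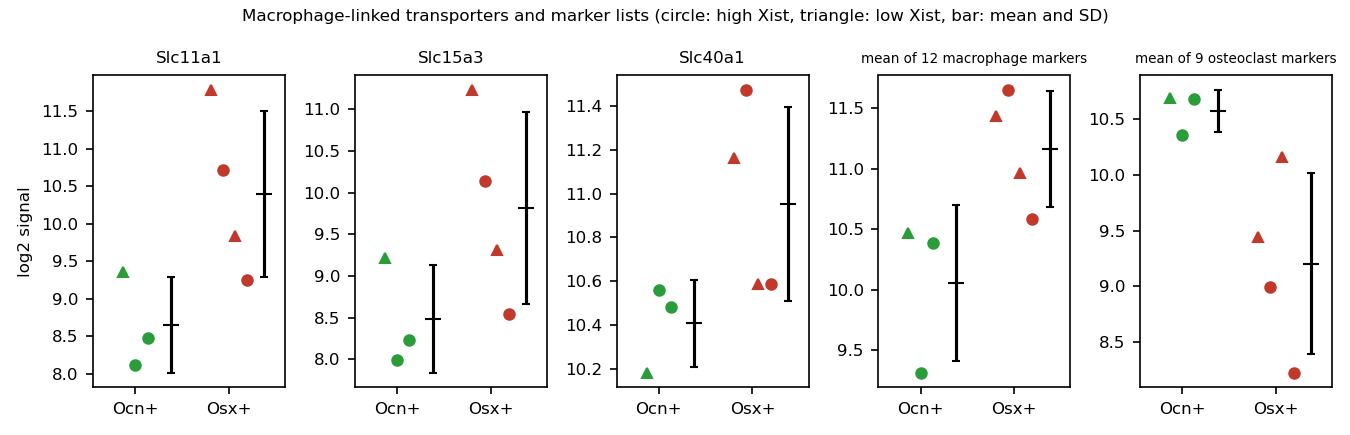
Log2 signal on each array (y axis) by group for Slc11a1, Slc15a3 and Slc40a1, and the mean log2 signal of 12 macrophage and 9 osteoclast markers; circles are high and triangles low Xist arrays, and bars give mean and SD. Slc11a1 runs from 8.11 to 9.36 in Ocn+ and from 9.25 to 11.78 in Osx+, and most macrophage markers have lower and the osteoclast markers higher means in Ocn+.

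Iron carriers other than Slc11a1 differed less. Slc40a1, ferroportin, the iron exporter of macrophages and other cells, read 10.18, 10.56 and 10.48 in Ocn+ and 11.16, 11.47, 10.59 and 10.59 in Osx+. The groups barely missed each other, the difference was -0.54 ± 0.27 (limma adjusted p = 0.999), and the other probe set differed by -0.06. Slc11a2, which imports iron and other divalent metals, differed by 0.20 ± 0.29. In mitochondria, Slc25a37 (mitoferrin, which imports iron) differed by -0.13 ± 0.30 and Slc25a38 (which brings in glycine for heme synthesis) by 0.01 ± 0.47. All 3 overlapped between the groups.

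Among the zinc and copper carriers, Slc39a6, Slc39a11 and Slc31a2 had groups without overlap. Slc39a6, a zinc importer linked to cell migration, read 10.96, 11.29 and 11.12 in Ocn+ and 11.33, 11.71, 11.69 and 11.70 in Osx+. The lowest Osx+ array was just above the highest Ocn+ array. The difference was -0.48 ± 0.17 (limma adjusted p = 0.888), and a second probe set differed by -0.69 without overlap. Slc39a11, another zinc transporter, read 10.40, 10.52 and 10.24 in Ocn+ and 9.97 to 10.14 in Osx+, a difference of 0.36 ± 0.15 (limma adjusted p = 0.935). Slc31a2, a copper transporter of endosomes, read 10.02, 10.19 and 10.32 in Ocn+ and 9.76, 9.60, 9.85 and 9.66 in Osx+. Its groups were apart, with a difference of 0.46 ± 0.15 (limma adjusted p = 0.888), and its other probe set differed by 0.12 with overlap. Slc39a13, a zinc transporter needed for connective tissue, differed by 0.16 ± 0.21, and Slc39a14, a zinc and iron importer, by -0.07 ± 0.15. Slc30a1, the zinc exporter of the cell surface, differed by -0.08 ± 0.30. Those 3 genes had overlapping groups.

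Among the 22 transporters of bicarbonate, chloride and other anions 10 had higher means in Ocn+ (45%, beside 52.7% of all genes) and 12 lower. Only 1 did not overlap (4.5%, beside 6.9% of all genes). Slc12a7, a potassium-chloride cotransporter that lowers cell volume, read 10.39, 9.86 and 9.93 in Ocn+ and 9.80, 9.03, 9.22 and 9.16 in Osx+. In both groups replicate 1 was the highest, and all Ocn+ arrays lay above all Osx+ arrays. The difference was 0.76 ± 0.24 (limma adjusted p = 0.874), 0.80 in the high and 0.88 in the low Xist arrays, and the other probe set differed by 0.76 with overlap. Slc4a2, the chloride-bicarbonate exchanger that osteoclasts use while they resorb bone, read 12.57, 11.95 and 12.09 in Ocn+ and 12.22, 11.53, 11.89 and 11.62 in Osx+, a difference of 0.39 ± 0.24 with overlap. Slc12a5, a neuronal potassium-chloride cotransporter picked after its values were seen, differed by 1.38 ± 0.61 on a dim probe set, and its other probe set by 0.02.

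Slc26a2, the sulfate importer that cartilage and bone need for proteoglycan sulfation, read 8.07, 8.85 and 9.17 in Ocn+ and 7.16, 10.93, 9.34 and 10.32 in Osx+. The Osx+ arrays spanned the Ocn+ arrays on both sides, and the difference was -0.74 ± 0.86. It was -1.61 in the high and -0.18 in the low Xist arrays. The 11 cartilage markers had lower means in Ocn+, as given above, and their summed linear signal lay at 14.92 to 15.77 (log2) in Ocn+ and at 15.73 to 16.88 in Osx+. Their part in the values of Slc26a2 was not tested. Slc12a2, the sodium-potassium-chloride cotransporter, differed by -0.44 ± 0.66, with its lowest signal, 9.48, on Ocn+ replicate 1.

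Of the 10 carboxylate transporters 3 had higher means in Ocn+ (30%, beside 52.7% of all genes) and 7 lower. None was free of overlap (0.0%, beside 6.9% of all genes). Slc16a3, the exporter of lactate from glycolytic cells, read 11.26, 10.69 and 10.48 in Ocn+ and 12.38, 11.77, 11.03 and 11.63 in Osx+. Only Osx+ replicate 3 fell within the Ocn+ range. The difference was -0.89 ± 0.35 (limma adjusted p = 0.935), a 1.86-fold lower geometric mean in Ocn+, and it was -1.12 in the high and -0.44 in the low Xist arrays. Slc16a1, which carries lactate and pyruvate in both directions, read 11.60, 12.39 and 12.04 in Ocn+ and 11.65 to 12.57 in Osx+, a difference of -0.11 ± 0.28. Slc16a6, picked after its values were seen, differed by -0.52 ± 0.24.

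The mitochondrial carriers had 23 of 33 members with higher means in Ocn+ (69.7%, beside 52.7% of all genes). Of these carriers 4 did not overlap, all with Ocn+ above (12.1%, beside 6.9% of all genes in either direction and 4.37% with Ocn+ above). Only 1 had an unadjusted p under 0.05 (3.03%, beside 5.31% of all genes). Slc25a42, which brings coenzyme A into the mitochondrion, read 7.66, 7.55 and 7.76 in Ocn+ and 6.93, 6.91, 7.25 and 6.27 in Osx+. The Ocn+ arrays were close to each other and all above the Osx+ arrays, with a difference of 0.82 ± 0.24 (limma adjusted p = 0.789), 1.07 in the high and 0.57 in the low Xist arrays. The other 3 without overlap were named after their values were seen. Slc25a13, the aspartate-glutamate carrier citrin, read 10.89 to 11.03 in Ocn+ and 9.80, 10.65, 10.64 and 10.78 in Osx+, a difference of 0.48 ± 0.26. Slc25a5, an exchanger of ADP and ATP, differed by 0.16 ± 0.14, and 6 of its 7 other probe sets had the same sign, all with overlap. Slc25a3, the carrier of phosphate into the mitochondrion, differed by 0.13 ± 0.14. For the last 2 genes the groups were apart although the differences were small, with SDs over arrays of at most 0.07 in each group. Slc25a23, a carrier of ATP-magnesium picked after its values were seen, had the highest difference of the family, 0.92 ± 0.64. Its Osx+ arrays spread from 5.96 to 8.76 around Ocn+ arrays of 7.81 to 8.06.

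Of the 20 transporters of nucleosides, vitamins and choline 9 had higher means in Ocn+ (45%, beside 52.7% of all genes) and 11 lower. Slc44a4, a choline transporter-like protein that carries thiamine pyrophosphate in colon, read 6.92, 5.69 and 6.29 in Ocn+ and 5.05, 4.61, 5.33 and 4.67 in Osx+. No array overlapped. The difference was 1.39 ± 0.33 (limma adjusted p = 0.689), a 2.62-fold higher geometric mean in Ocn+, and was 1.35 in the high and 1.74 in the low Xist arrays. The probe set was dim, with its mean at the percentile 20.4 of all genes. Slc29a1, the main nucleoside transporter of the cell surface, differed by 0.50 ± 0.28 with overlap. Slc46a1, the proton-coupled folate transporter, was picked after its values were seen and read 10.72, 10.35 and 10.27 in Ocn+ and 10.38, 9.34, 9.72 and 9.95 in Osx+. Only Osx+ replicate 1 overlapped, and the difference was 0.60 ± 0.27, with 0.58 on its other probe set.

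The vesicular and organic anion family held 8 genes and the member of smallest p. Slc18a1, which loads monoamines into the secretory vesicles of neuroendocrine cells, read 7.44, 7.38 and 7.68 in Ocn+ and 6.88, 5.93, 5.84 and 6.01 in Osx+. The Ocn+ arrays lay close together, 3 of the Osx+ arrays lay close together well below them, and Osx+ replicate 1 fell between. The mean log2 signal was 7.50 ± 0.16 (SD, n = 3) in Ocn+ and 6.17 ± 0.49 (SD, n = 4) in Osx+. The difference was 1.33 ± 0.28 (limma adjusted p = 0.689), a 2.52-fold higher geometric mean in Ocn+, 1.56 in the high and 1.08 in the low Xist arrays. When limma weighted the arrays by how closely they followed the means of their group, 97 of all genes (0.783%) had an adjusted p under 0.05. Slc18a1 was the only member among them, with a difference of 1.43 and an adjusted p of 0.0263. The low Xist arrays had the lowest weights, 0.236 on Osx+ replicate 1, 0.353 on Osx+ replicate 3 and 0.457 on Ocn+ replicate 1. Weights of the high Xist arrays ran from 1.03 on Osx+ replicate 2 to 6.02 on Ocn+ replicate 2. The weighted fit thus rested mostly on the high Xist arrays.

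The carriers of organic ions, bile acids, lipids and urea had 12 members with higher means in Ocn+ (40%, beside 52.7% of all genes) and 18 with lower. Without overlap was 1 of 30 (3.33%, beside 6.9% of all genes). Slc27a1, a fatty acid importer, read 9.47, 9.42 and 9.46 in Ocn+ and 9.30, 9.02, 8.31 and 8.64 in Osx+. The Ocn+ arrays had an SD of 0.03 and lay above all Osx+ arrays, and the difference was 0.63 ± 0.25 (limma adjusted p = 0.935). Slc14a2, a urea transporter of the kidney, read 6.94, 6.21 and 6.13 in Ocn+ and 5.12, 4.27, 6.15 and 4.05 in Osx+. Osx+ replicate 3 lay within the Ocn+ range and the others below it. The difference was 1.53 ± 0.52 (limma adjusted p = 0.888), and the other probe set differed by 0.12. Slc14a1, the urea transporter of red cells and vessels, read 7.05, 6.5 and 5.67 in Ocn+ and 7.70, 9.74, 6.68 and 5.82 in Osx+, a difference of -1.08 ± 0.89. Osx+ replicate 2 alone stood far above the other arrays. A second probe set differed by -0.98.

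The small families gave little. Of 6 exchangers of sodium, protons and calcium, 1 had an unadjusted p under 0.05 (16.7%, beside 5.31% of all genes). This was Slc24a3, a potassium-dependent sodium-calcium exchanger picked after its values were seen. It read 9.44, 9.83 and 9.60 in Ocn+ and 8.89, 8.96, 9.56 and 8.64 in Osx+, where Osx+ replicate 3 overlapped, and differed by 0.61 ± 0.25 (limma adjusted p = 0.935). The sodium-calcium exchangers with which osteoblasts extrude calcium, Slc8a1 and Slc8a3, differed by -0.17 ± 0.18 and 0.08 ± 0.45. The renal phosphate importer Slc34a1 read 4.02 to 4.44 over the 7 arrays, at the percentile 6.79 of mean signal, and differed by 0.01 ± 0.16. The 5 nucleotide sugar transporters, which feed the Golgi with precursors of glycans, differed by -0.31 to 0.24.

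Of the 30 transporters listed for a known role in bone, cartilage, osteoclasts, macrophages or red cells or as the main carrier of a substrate, 27 were measured. 12 had higher and 15 lower means in Ocn+, with a median difference of -0.08. 0 passed the adjusted threshold. Slc11a1 and Slc16a3, both lower in Ocn+, were the 2 with an unadjusted p under 0.05 (7.41%, beside 5.31% of all genes in either direction). Slc40a1 was the 1 without overlap (3.70%, beside 6.9% of all genes in either direction).

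The spread between arrays was close to that of all genes. The median range over the 7 arrays was 1.06 log2 units for the members and 1.05 for all genes, and 42 members (17.9%) spanned at least 2 log2 units, beside 16.1% of all genes. The amino acid and peptide transporters held 15 of these 42, which was 32.6% of their 46 genes, beside 16.1% of all genes. The 5 members of widest range were Slc14a1 (4.08), Slc26a2 (3.76), Slc11a1 (3.67), Slc45a3 (3.62) and Slc10a1 (3.49). Slc10a1, the bile acid importer of the liver, read 5.37, 7.49 and 7.91 in Ocn+ and 6.20, 8.66, 6.79 and 8.87 in Osx+. Its 3 lowest arrays were the low Xist arrays, and the group difference was -0.70 ± 0.87. The other probe set of Slc10a1 read only 3.54 to 3.88 over the 7 arrays and differed by 0.11.

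**Figure D4:**
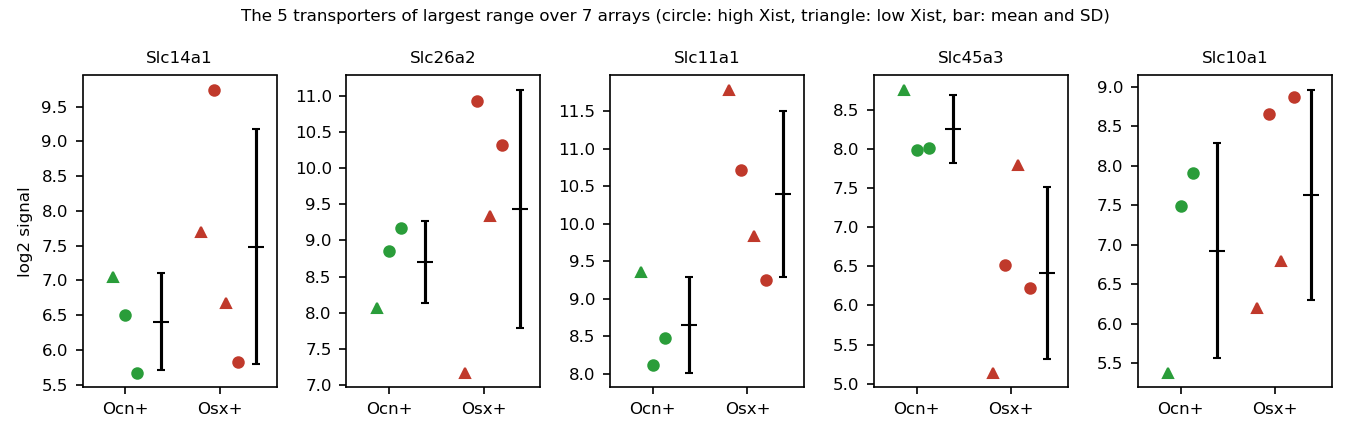
Log2 signal on each array (y axis) by group for the 5 transporters of widest range over 7 arrays; circles are high and triangles low Xist arrays, and bars give mean and SD. The ranges run from 3.49 log2 units in Slc10a1 to 4.08 in Slc14a1, whose highest value, 9.74, is a single Osx+ array.

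Many transporters separated the Xist classes rather than the groups, at shares near those of all genes. In 47 members (20%) all low Xist arrays lay above all high Xist arrays, beside 21.4% of all genes, and in 27 (11.5%) all lay below, beside 12.9%. Among the 33 mitochondrial carriers 12 lay above (36.4%, beside 21.4% of all genes) and 4 below (12.1%, beside 12.9%). Slc52a3, a riboflavin transporter picked after its values were seen, differed within a class instead: Osx+ read 4.94 and 8.26 on the 2 low Xist arrays and 5.60 and 6.68 on the high ones. Slc30a4, a zinc transporter of vesicles picked after its values were seen, read 8.16 on Ocn+ replicate 1 and 8.40 on Osx+ replicate 1, and 10.27 to 11.24 on the other 5 arrays. With the Xist class as a term in the limma fit, 41 members (17.4%) had an unadjusted p under 0.05 for the group difference, beside 16% of all genes. The smallest adjusted p of a member was then 0.0986. The group difference had the same sign in both classes in 158 members (67.2%), beside 64.8% of all genes.

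**Figure D5:**
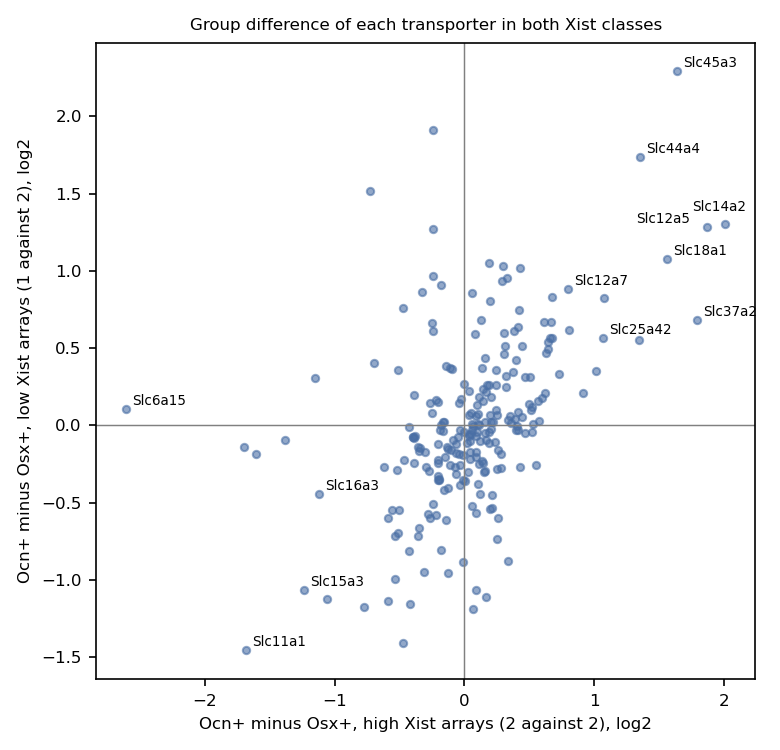
Difference of mean log2 signal, Ocn+ minus Osx+, in the high Xist arrays (x axis, 2 against 2 arrays) and in the low Xist arrays (y axis, 1 against 2 arrays), with a point for each of the 235 transporters. Slc45a3 (1.63 and 2.29), Slc44a4 (1.35 and 1.74) and Slc18a1 (1.56 and 1.08) lie high in both, Slc11a1 (-1.68 and -1.45) lies low in both, and Slc6a15 (-2.60 and 0.10) differs in the high class.

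Probe sets of one gene did not always give the same sign. Of 88 members with several probe sets, all others had the sign of the one used in 59, and of 136 other probe sets 97 had that sign. The other 147 members rested on a single probe set. Part of the members had dim signals: 79 of 235 had a mean under the 25th percentile of all genes, among them Slc44a4, Slc7a13 and Slc14a2. Whether such a signal is above background is not known here.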

How the data were processed

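Total RNA of sorted cells was extracted, amplified with the NuGEN Ovation V2 method and labelled with biotin, per the labels' protocols. The authors deposited log2 expression values, 1 per probe set and array, made with RMA, per the submitters' processing notes; the software version is not given in the sources used here. RMA equalizes the distributions of the arrays, so a change in total RNA cannot be read. The medians of the 7 arrays lay at 8.25 to 8.35. Arrays have no read depth, and their number, 3 against 4, limits the precision.

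Of 22690 probe sets 64 were controls, 20380 had 1 gene symbol, 691 several and 1555 none listed. 20351 matched a current symbol by Entrez identifier. Only those with 1 symbol were used, which left 3 Slc symbols out. Ocn+ was compared with Osx+ by limma 3.58.1 (R 4.3.3), using lmFit and eBayes with a constant prior and without a block, at a threshold of 0.05 on the Benjamini-Hochberg adjusted p over all 12393 genes. A fold is 2 raised to the size of the log2 difference, a ratio of geometric means. Counts and medians were computed in Python 3.11.15.

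Named were members with an unadjusted p under 0.05 and no overlap (12), a list of 30 carriers with known roles, the smallest p in each family of 8 or more genes, and the 5 of widest range. Other names are said to be picked after their values were seen. The members, the lists and the classes by Xist signal (log2 limit of 8) were chosen with earlier results of these data known. Replicate numbers were checked for pairing: deviations of same-numbered arrays correlated at 0.63, 0.45 and -0.30. Over all pairs of an Ocn+ and an Osx+ array, correlations were positive within an Xist class and negative between the classes. The check thus followed the class and could not tell whether the numbers pair the samples.

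Simulated data drawn from the means and spreads of these 12393 genes, 3 against 4 arrays, were used to test this comparison in 20 runs. Of genes shifted by 1 log2 unit 20.9% were recovered, of those shifted by 2, 4 and 6 units 77.2%, 97.6% and 99.8%, with 7.55 false calls per run. Noise was drawn independently for each gene and array, so spread shared by many genes, as between the Xist classes, was not simulated. The shares therefore cannot say how large a difference these data would miss. The largest difference of all genes, 5.35 in Prg2, had a limma adjusted p of 0.689. Alternatives were the replicate number as a block, each array left out, 2 filters on dim genes, array weights, a trended robust prior, centring on the median, a repeat of quantile normalization, 2 other rules for the probe set, a threshold of 0.1, the Xist class as a term and each class alone.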

Additional observations from a re-analysis of the deposited data

Results flagged for a closer look

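In 4 of the 56 named transporters 1 of the 4 Osx+ arrays lay far from the other 3 by Dixon's test; chance alone gives this in about 1 in 20 groups. Slc18a1 read 6.88 on Osx+ replicate 1, above 5.84 to 6.01 on the others. Slc39a6 read 11.33 on Osx+ replicate 1, below 11.69 to 11.71 on the others. Slc25a13 read 9.80 on Osx+ replicate 1, below 10.64 to 10.78 on the others. Slc6a9, the glycine transporter, read 12.06 on Osx+ replicate 4, above 11.65 to 11.70 on the others. In Slc18a1 and Slc39a6 this array was the Osx+ array nearest to Ocn+. Osx+ replicate 1 also had the lowest array weight, 0.236, and belonged to the low Xist class.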

How the results depend on the processing

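Limits lie in 3 against 4 arrays, in dim probe sets without detection calls and in arrays of unknown animals. Without any change 0 genes were called; 3 were called without Osx+ replicate 2 and 3 without Osx+ replicate 3 (range over arrays left out 0 to 3), 97 with array weights and 19 in the high Xist arrays alone. No member was called under any alternative but array weights, which called 1. With the replicate number as a block 0 genes and 0 members were called. The members without overlap numbered 24 to 41 with each array left out, 11 without genes under the median, 132 in the high and 151 in the low Xist arrays, where fewer samples or genes set the count. Of 249 alternative family medians 26 moved, and the cause was not tested. With the replicate block the metal ion median was 0.07 and that of nucleotide sugars 0.14. Without genes under the 25th percentile the median was 0.075 for all members, 0.012 for amino acids, 0.20 for anions, -0.47 for carboxylates, 0.037 for organic ions, 0.082 for sodium, proton and calcium exchange and 0.24 for vesicular carriers. Without genes under the median it was 0.041 for amino acids, -0.52 for carboxylates, 0.073 for metal ions, 0.10 for organic ions, 0.61 for the exchangers and 0.17 for sugars. It was 0.14 for sugars with array weights and 0.073 for metal ions when all probe sets were averaged and also with that of largest variance. In the high Xist arrays it was 0.069 for all members and 0.21 for sugars; in the low Xist arrays 0.023 for metal ions, -0.22 for nucleotide sugars and 0.094 for the exchangers. With each array left out the medians of metal ions ran from 0.053 to 0.16 and those of nucleotide sugars from -0.11 to 0.14. Of 56 named genes 39 kept their sign throughout. With the block Slc1a5 stood at -0.17, Slc25a38 at -0.20 and Slc34a1 at -0.001; Slc25a38 stood at -0.012 after quantile normalization, and after median centring it stood at -0.023 and Slc34a1 at -0.018. Weights gave Slc25a37 0.19, Slc2a3 -0.13, Slc34a1 -0.04 and Slc3a2 0.044. The probe set of largest variance gave Slc2a4 -0.046 and Slc25a5 -0.005. The Xist term gave Slc30a1 0.041 and Slc8a3 -0.10. High Xist arrays gave Slc25a37 0.02, Slc2a3 -0.14, Slc30a1 0.062 and Slc3a2 0.032. Low Xist arrays gave Slc30a1 0.009, Slc34a1 -0.071, Slc39a14 0.023, Slc8a1 0.20, Slc8a3 -0.30 and Slc6a15 0.10. Over arrays left out Slc10a1 ran from -1.20 to 0.073, Slc12a2 from -0.85 to 0.21, Slc16a1 from -0.30 to 0.094, Slc1a5 from -0.17 to 0.28, Slc25a37 from -0.32 to 0.12, Slc25a38 from -0.41 to 0.28, Slc30a1 from -0.31 to 0.05, Slc30a4 from -1.22 to 0.12, Slc34a1 from -0.093 to 0.11, Slc3a2 from -0.25 to 0.034 and Slc8a3 from -0.15 to 0.52.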
